A study of Homo sapiens with 9 samples.

Results

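Cytosolic ribosomal proteins are the protein components of the ribosome that translates messenger RNA outside mitochondria, and the RNA of their genes was followed here in ALL-SIL cells after knockdown of PHF6. Members were the genes whose probes carry a transcript identifier that maps to an RPL or RPS symbol ending in a number, or in a number and the letter A or X, together with RPLP0, RPLP1, RPLP2 and RPSA. Pseudogenes, ribosomal protein kinases and the paralogs with an L after the number were not members. The rule found 77 genes among the 19722 genes with a symbol on the array, and these were all 77 genes of the reference table that match it. Of them, 46 encode proteins of the large subunit and 31 encode proteins of the small subunit. They had 150 of the 57176 probes, with several probes for 39 genes and 1 probe for 38 genes, and the probe with the highest mean value stands for its gene.

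ALL-SIL is an established cell line of T cell acute lymphoblastic leukaemia (T-ALL). Cells of all groups were grown in the same medium and electroporated, and the 3 groups received control siRNA, PHF6 siRNA1 or PHF6 siRNA2. Most labels give the harvest at 96 h after electroporation, and a free-text description gives 72 h. There were 3 independent biological replicates per group, numbered 1 to 3, and each was labelled with Cy3 and hybridized alone, which gave 9 arrays. Values are VSN-normalized intensities on a generalized log2 scale. Testing was limited to the 33586 probes that stood well above their background on 3 or more arrays. Per array, 29662 to 33736 probes met that background rule, and with 3 arrays per group their number limits the precision. No spot was saturated. All 150 ribosomal protein probes were well above background on all 9 arrays, so that all 77 genes were tested.

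Each ribosome carries nearly all of these proteins in single copy, and cells make them in balanced amounts from genes that are scattered over the genome and expressed together. Their messenger RNAs begin with a C followed by a run of pyrimidines, the terminal oligopyrimidine tract, through which mTOR and LARP1 control their translation. In T-ALL, genes of the large subunit such as RPL5, RPL10 and RPL22 are recurrently mutated or deleted, and inherited mutations of ribosomal protein genes cause Diamond-Blackfan anaemia. PHF6, a chromatin-associated protein of the nucleus and nucleolus, is also recurrently mutated in T-ALL.

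What these genes share beyond the naming rule can be read around their transcription start. RefSeq promoter entries (GRCh38.p14) were matched by symbol for 62 of the 77 genes, which had 77 annotated starts, with several starts for 10 genes. Genes without an entry include RPL23, RPL23A, RPL30, RPL37, RPL5, RPL7, RPL8, RPS15A, RPS2 and RPS20. The stretches printed here run from 60 bases before the start to base 30 of the transcript, on the strand of the gene, for genes whose array values are described further on. Capitals mark a run of C and T that opens at the first transcribed base. The stalk genes lie at chr12:120201082-120201171, minus strand (RPLP0), chr15:69452758-69452847, plus strand (RPLP1) and chr11:809907-809996, plus strand (RPLP2). RPL10 is shown at chrX:154398317-154398406, plus strand, RPL11 at chr1:23691746-23691835, plus strand and RPL22 at chr1:6199566-6199655, minus strand. RPSA is shown at chr3:39406660-39406749, plus strand, RPS6 at chr9:19380207-19380296, minus strand and RPS19 at chr19:41860195-41860284, plus strand. The stretch of RPL28 lies at chr19:55385872-55385961, plus strand, that of RPS18 at chr6:33272015-33272104, plus strand, that of RPS24 at chr10:78033803-78033892, plus strand and that of RPL27A at chr11:8682732-8682821, plus strand. RPS26 at chr12:56041858-56041947, plus strand and RPL10A at chr6:35468341-35468430, plus strand are shown because no such run opens at their annotated start. RPL10, RPL11 and RPS19 have other annotated starts without a run of this length, and the start shown was chosen after the sequences were seen.
RPLP0: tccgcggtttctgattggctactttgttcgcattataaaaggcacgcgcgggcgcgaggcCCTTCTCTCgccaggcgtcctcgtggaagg
RPLP1: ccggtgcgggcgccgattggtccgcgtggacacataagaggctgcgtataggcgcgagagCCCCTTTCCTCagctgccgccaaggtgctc
RPLP2: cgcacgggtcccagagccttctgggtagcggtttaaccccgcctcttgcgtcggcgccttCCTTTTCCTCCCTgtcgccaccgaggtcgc
RPL10: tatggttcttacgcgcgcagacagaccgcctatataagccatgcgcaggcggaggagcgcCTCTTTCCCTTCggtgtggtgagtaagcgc
RPL11: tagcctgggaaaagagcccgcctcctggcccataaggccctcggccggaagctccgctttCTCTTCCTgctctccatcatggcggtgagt
RPL22: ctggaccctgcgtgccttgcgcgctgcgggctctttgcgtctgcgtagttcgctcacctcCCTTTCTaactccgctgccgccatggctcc
RPSA: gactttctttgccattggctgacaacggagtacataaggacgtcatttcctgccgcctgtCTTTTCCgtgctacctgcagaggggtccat
RPS6: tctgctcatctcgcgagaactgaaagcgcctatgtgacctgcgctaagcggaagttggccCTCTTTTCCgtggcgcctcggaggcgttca
RPS19: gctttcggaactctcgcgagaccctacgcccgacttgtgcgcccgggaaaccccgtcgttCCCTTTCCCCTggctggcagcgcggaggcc
RPL28: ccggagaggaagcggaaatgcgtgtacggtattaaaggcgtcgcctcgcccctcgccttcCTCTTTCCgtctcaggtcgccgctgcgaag
RPS18: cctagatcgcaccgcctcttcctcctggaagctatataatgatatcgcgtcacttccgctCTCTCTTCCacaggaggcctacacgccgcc
RPS24: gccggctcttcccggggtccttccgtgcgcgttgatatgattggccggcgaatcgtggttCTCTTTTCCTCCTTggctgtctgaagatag
RPL27A: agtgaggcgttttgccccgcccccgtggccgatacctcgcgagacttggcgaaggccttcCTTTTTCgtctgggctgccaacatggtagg
RPS26: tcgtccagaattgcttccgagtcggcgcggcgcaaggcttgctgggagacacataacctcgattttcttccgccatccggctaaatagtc
RPL10A: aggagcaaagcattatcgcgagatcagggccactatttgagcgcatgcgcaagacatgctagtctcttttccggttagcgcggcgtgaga

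Of the motifs searched, the pyrimidine run set these genes apart most from other genes. A C at the first transcribed base followed by at least 4 bases that were C or T, a motif chosen after the sequences were seen and read on the strand of the gene, stood at 59.7% of the ribosomal protein starts and at 4.54% of the 22199 starts of all protein-coding genes. CTTTCC or CTTTTC within 25 bases of the start on the strand of the gene, which overlaps that run, was found at 46.8% of the ribosomal protein starts against 4.25% of all. CCGGAAG on either strand of the 300-base entry was found at 33.8% against 12.8%, and AAGATGG on either strand at 10.4% against 6.04%. TATAA on the strand of the gene in the 50 bases before the start was found at 9.09% against 5.32%. The starts of mitochondrial ribosomal protein genes held the pyrimidine run at 7.06%, CTTTCC or CTTTTC at 4.71%, CCGGAAG at 38.8% and AAGATGG at 31.8%. These are matches of letters in a window, and no binding was measured.

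PHF6 itself was read first, as the check of the knockdown. PHF6 (A_23_P171385) had log2 values of 11.07, 11.17 and 10.86 with control siRNA, 9.39, 9.69 and 9.12 with siRNA1, and 9.20, 9.28 and 9.14 with siRNA2. All 6 siRNA values lay far below the 3 control values. PHF6 fell by 1.73 on the log2 scale over both siRNAs (standard error 0.14, limma adjusted p = 0.00248), in 6 of 6 siRNA arrays, which left 30.2% of the control level. The cells carried the T cell markers of the line, since all 12 of the T cell and ALL-SIL markers listed, among them TLX1, CD3D and CD7, were well above background on all 9 arrays. In bulk RNA, fewer cells of a kind and less RNA per cell cannot be told apart, here and in every difference given in the following text.

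The comparison of both PHF6 siRNAs with control siRNA asks whether the loss of PHF6 changed the RNA of the ribosomal protein genes. None of the 77 genes passed the test (limma, 0 with an adjusted p under 0.05), while 0.00893% of all tested probes did. An unadjusted p under 0.05 was reached by 0 members in limma and by 7.43% of all tested probes. When the replicate number entered limma as a block, 0 of the 77 genes were called, against 2.74% of all tested probes. In that fit 2 members, or 2.6%, had an unadjusted p under 0.05, against 21.8% of all tested probes. The lowest adjusted p among the members was 0.725 without the block and 0.123 with it. In 0 genes did all 6 siRNA arrays lie below the 3 control arrays, as they did for 2.05% of all tested probes, and in 0 genes did all 6 lie above them, as for 1.83%. Without the block, the 95% confidence interval lay within 0.5 log2 units on either side of 0 for 71 of 77 genes. Over all 77 genes these intervals reached from -0.61 to 0.51.

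As a family the genes sat slightly below control, with 67 differences below 0, 10 above 0 and a median of -0.079 (quartiles -0.12 and -0.040), but after normexp background correction and quantile normalization 39 were below 0, 38 above 0 and the median was -0.0022. Over all tested probes the median was -0.00056, with 50.1% of the differences below 0. The probes of 76 of the 77 genes belong to the brightest 10% of the tested probes, whose median was -0.087, with 75.3% below 0. Taken relative to that median, a reference chosen after seeing the data, the ribosomal protein median was 0.0081. That set includes the probes of these 76 genes, and the part that brightness has in the shift of the family was not tested. The 46 large subunit genes had a median of -0.074, with 41 below 0, and the 31 small subunit genes had a median of -0.083, with 26 below 0, whereas with normexp and quantile normalization these medians were 0.0067 and -0.0068. Within the family, 28 genes had a difference of -0.1 or lower and 39 lay between -0.1 and 0. The 10 genes above 0 include RPL30, RPLP2, RPS15A, RPL10A, RPS24 and RPL27A.

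**Figure D1:**
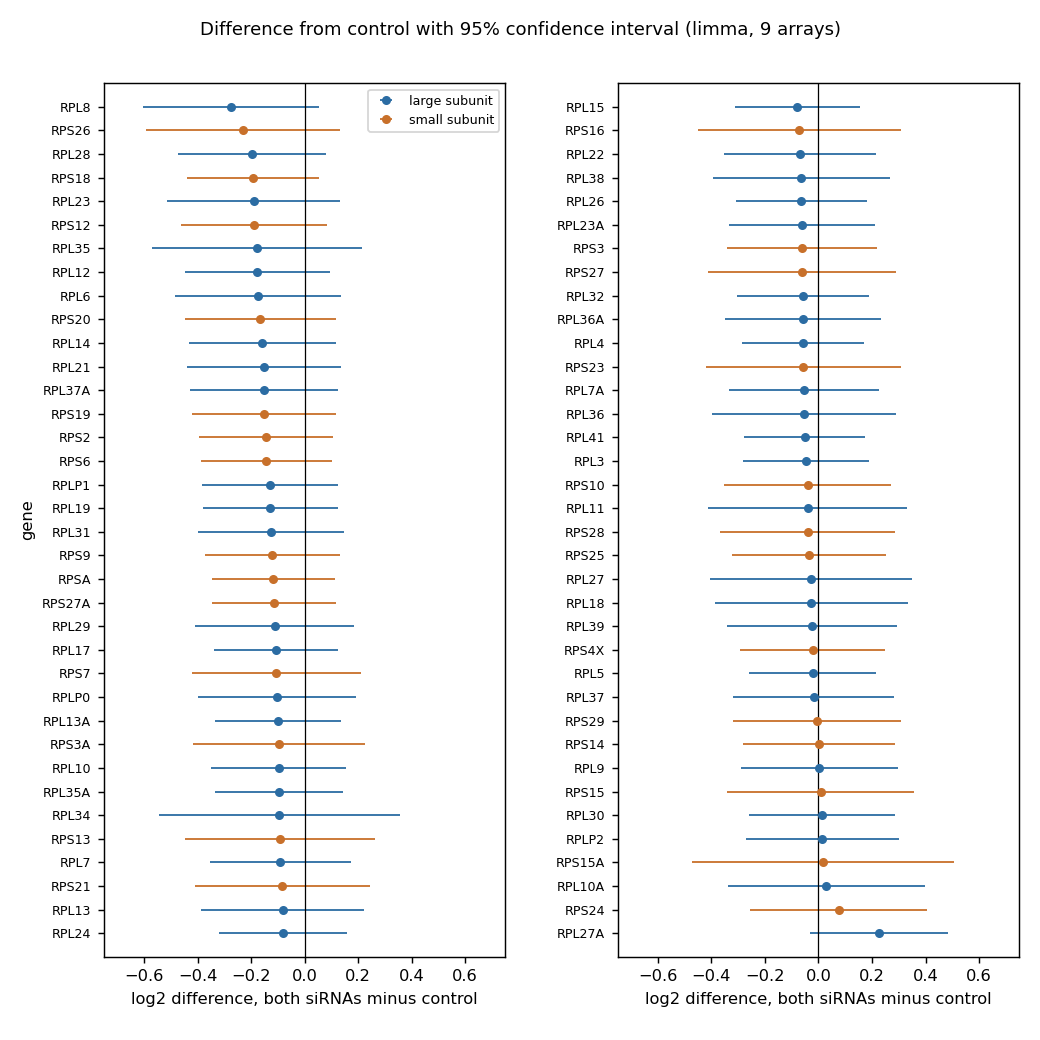
Log2 difference of both PHF6 siRNAs minus control siRNA (x axis) for 72 of the 77 ribosomal protein genes (y axis), with points for the limma estimate, lines for the 95% confidence interval over 9 arrays and colours for the subunit. All 72 intervals shown, from the fit without the replicate block, include 0, and 63 points lie below 0. Over all 77 genes 67 were below 0, and 39 were after normexp and quantile normalization.

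The plot of differences with their intervals shows the order of the genes from RPL8 at -0.28 to RPL27A at 0.23, and every interval crosses the zero line. Of the genes with a promoter entry, the 46 with the pyrimidine run at a start had a median difference of -0.088 and the 16 without it -0.052. The 33 genes with CTTTCC or CTTTTC near a start had a median of -0.081 against -0.070 in the other 29 genes. The medians were -0.074 in the 22 genes with CCGGAAG and -0.080 in the 40 without it. For AAGATGG they were -0.0713 in the 8 genes with it and -0.0805 in the 54 without it. For TATAA they were -0.0973 in the 7 genes with it and -0.0715 in the 55 without it. The medians by motif are given as a description with no test.

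The family was next read array by array. Relative to each gene's mean over 9 arrays, the median ribosomal protein gene stood at 0.13, 0.13 and -0.11 on the control arrays of replicates 1, 2 and 3. With siRNA1 the medians were -0.069, 0.13 and -0.16, and with siRNA2 they were 0.011, 0.0040 and -0.088, all with VSN. Control replicates 1 and 2 and siRNA1 replicate 2 were the high arrays, replicate 3 was the lowest array of every group, and the groups overlapped. This order depended on the normalization. With 75th percentile scaling replicate 3 was the highest siRNA2 array, at -0.026 against -0.035 and -0.038. With normexp and quantile normalization all 9 medians lay between -0.013 and 0.014, and replicate 3 was the highest array of both siRNA groups. With VSN the brightest 10% of probes had medians of 0.087, 0.13 and -0.046 with control siRNA, -0.032, -0.016 and -0.094 with siRNA1, and 0.011, 0.013 and -0.046 with siRNA2. Both sets were low in replicate 3 of each group, and on the siRNA1 array of replicate 2 the ribosomal protein genes were high while the brightest 10% were not.

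**Figure D2:**
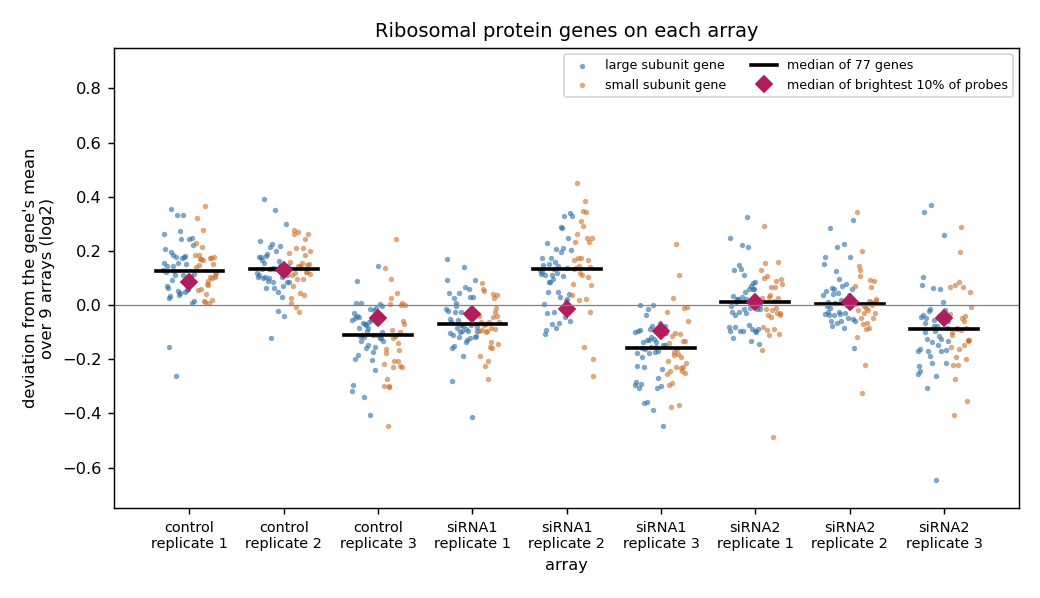
Deviation of each ribosomal protein gene from its mean over 9 arrays in log2 units (y axis) on each array (x axis), with points for genes coloured by subunit, black lines for the median of the 77 genes and diamonds for the median of the brightest 10% of probes. With VSN the medians of the genes run from -0.16 on the siRNA1 array of replicate 3 to 0.13 on the control array of replicate 2, and the 3 groups overlap, while with normexp and quantile normalization all medians lay between -0.013 and 0.014.

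In the plot of single arrays the genes of both subunits shift together, so that an array with a high median has most genes above 0. On control replicate 1, 75 of 77 genes lay above their own mean, and on siRNA1 replicate 3, 73 of 77 lay below it. The typical spread of a member within a group, as the median SD over the 77 genes, was 0.16 log2 units, compared with 0.22 over all tested probes, 0.17 over the brightest 10% and 0.15 over the mitochondrial ribosomal protein genes. After the ribosomal protein median of each array was taken away it was 0.096, and it was smaller than before in 65 of the 77 genes. With VSN, a part of the spread of a typical member thus went with the family median of its array. That median comes from the same genes, so some fall in spread is built in, and no other set was treated so. With normexp and quantile normalization the array medians lay between -0.013 and 0.014, so that the shift depended on the normalization.

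Replicates of the same number were set against their own control. The median of the 77 genes was -0.15, 0.011 and -0.027 for siRNA1 in replicates 1, 2 and 3, and -0.074, -0.14 and 0.037 for siRNA2. In replicate 1, 76 of 77 genes were lower than their control with siRNA1 and 53 with siRNA2. In replicate 2 these counts were 37 and 66, and in replicate 3 they were 54 and 25. Most genes were thus on the other side of 0 in replicate 3 of siRNA2, and in replicate 2 of siRNA1 the family was close to its control. RPL12, RPL19, RPL23, RPL28, RPL29, RPL35A, RPL4, RPL8 and RPSA were lower than their own control on 6 of 6 siRNA arrays, with RPL28 counted although its replicate 2 values for control and siRNA1 were equal to 2 decimals, and these 9 genes are 11.7% of the members, close to the 10.8% of all tested probes that were so. Of this list, RPL12, RPL19, RPL29 and RPL35A are named after their values were seen. RPL27A, read by a single dim probe, was higher than its own control on 6 of 6, which is 1.3% of the members, against 10.7% of all tested probes.

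Replicates 1 and 2 of every group lay on one slide and replicate 3 on another. Within the first slide the family median was -0.12, with 73 genes below 0, and within the second slide, which holds 1 array per group, it was -0.015, with 42 below 0 and 35 above. The brightest 10% of probes had medians of -0.13 and -0.016 on these slides. With the slide as a block the family median was -0.079, and limma called 0 of 77 genes and 24 of all tested probes. In that fit 2 genes (2.6%) and 14.9% of all tested probes had an unadjusted p under 0.05. The column of the slide was the same for all samples of a group, so that column and siRNA cannot be told apart. Leaving out the control array of replicate 3, the lowest control for this family, gave a median of -0.16 for both siRNAs. That fit had no block, and its controls all lay on the first slide, so that the offset of replicate 3 enters this value.

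The median of the family was also read under other choices of signal, background correction and scaling. The median was -0.11 with VSN on the background-subtracted signal, with 76 of 77 genes below 0, and -0.095 with scaling to the 75th percentile, with 76 below 0. It was -0.083 in the table deposited by the authors, with 70 below 0. With normexp and quantile normalization the ribosomal protein median was -0.0022, and that of the brightest 10% was -0.00092. The median of all tested probes stayed between -0.029 and -0.00056 under these choices.

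**Figure D3:**
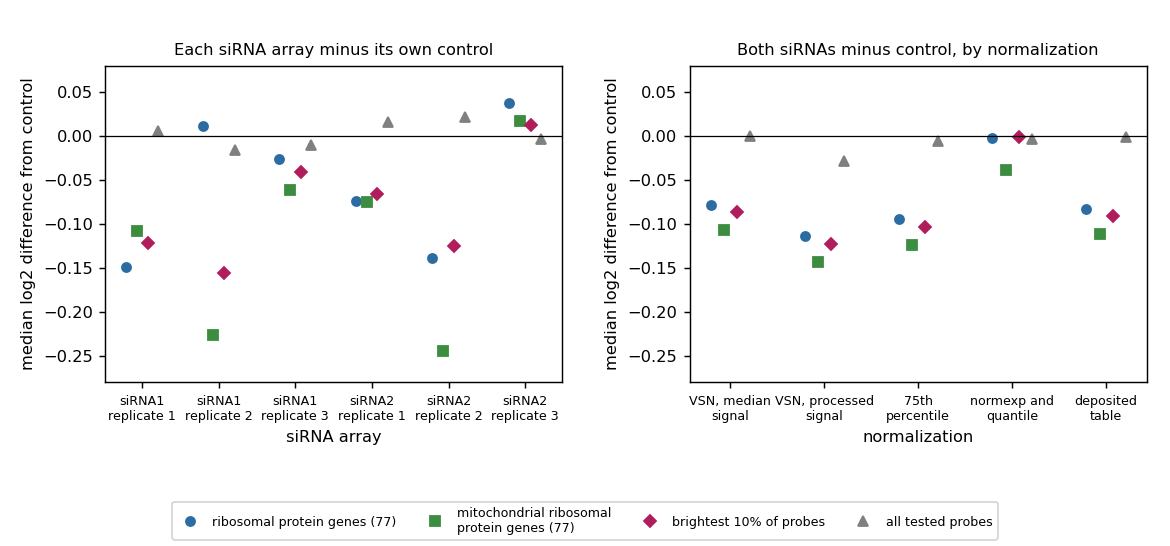
Median log2 difference from control (y axes) of the ribosomal protein genes, the mitochondrial ribosomal protein genes, the brightest 10% of probes and all tested probes, for each siRNA array minus the control array of the same replicate (left x axis) and for both siRNAs minus control under each normalization (right x axis). The ribosomal protein median ranges from -0.15 in siRNA1 replicate 1 to 0.037 in siRNA2 replicate 3, and from -0.11 with VSN on the processed signal to -0.0022 with normexp and quantile normalization.

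The plot of medians by replicate and by normalization sets the ribosomal protein genes beside the brightest 10% of probes, which include most of them. Replicate 2 of siRNA1 stands out, where the ribosomal protein median was 0.011, that of the brightest 10% -0.16 and that of the mitochondrial ribosomal protein genes -0.23. In that array both subunits were near their control, with medians of -0.018 for the large and 0.030 for the small subunit genes. All other siRNA arrays had the ribosomal protein genes and the brightest 10% on the same side of 0.

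The stalk of the large subunit, which recruits the translation GTPases, is built from RPLP0 at its base and dimers of RPLP1 and RPLP2. RPLP0 (A_32_P184796) had log2 values of 18.02, 17.88 and 17.70 with control siRNA, 17.69, 17.74 and 17.65 with siRNA1, and 17.65, 18.11 and 17.74 with siRNA2. The siRNA2 array of replicate 2 was the highest and the siRNA1 array of replicate 3 the lowest, so that the groups overlapped. The difference of RPLP0 was -0.10 (standard error 0.13, 95% confidence interval -0.40 to 0.19; limma adjusted p = 0.9). RPLP1 (A_32_P857658) had log2 values of 18.45, 18.48 and 18.33 with control siRNA, 18.25, 18.54 and 18.26 with siRNA1, and 18.32, 18.18 and 18.20 with siRNA2. The siRNA1 array of replicate 2 was the highest of all, and the other 5 siRNA arrays were below the 3 control arrays. RPLP1 differed by -0.13 (standard error 0.12, 95% confidence interval -0.38 to 0.13; limma adjusted p = 0.845). RPLP2 (A_23_P147888) had log2 values of 18.17, 18.25 and 18.03 with control siRNA, 18.06, 18.49 and 18.05 with siRNA1, and 18.16, 18.10 and 18.11 with siRNA2. Here siRNA1 replicate 2 was again the highest, control replicate 3 the lowest, and the groups overlapped. RPLP2 differed by 0.014 (standard error 0.13, 95% confidence interval -0.27 to 0.30; limma adjusted p = 0.989), and with VSN on the processed signal the value was -0.079.

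Ribosomal protein genes mutated in T-ALL came next, all of them of the large subunit. RPL5 and RPL11 form a particle with the 5S ribosomal RNA and, when free, bind MDM2. RPL5 (A_33_P3246163) had log2 values of 17.82, 17.81 and 17.62 with control siRNA, 17.69, 17.75 and 17.62 with siRNA1, and 17.82, 17.77 and 17.70 with siRNA2. RPL11 (A_23_P62605) had log2 values of 17.81, 17.66 and 17.25 with control siRNA, 17.72, 17.72 and 17.26 with siRNA1, and 17.45, 17.73 and 17.32 with siRNA2. Replicate 3 was the lowest of each group for both genes, and the groups overlapped. The difference was -0.021 (standard error 0.11, 95% confidence interval -0.26 to 0.22; limma adjusted p = 0.978) for RPL5 and -0.040 (standard error 0.17, 95% confidence interval -0.41 to 0.33; limma adjusted p = 0.973) for RPL11. RPL10 joins the large subunit late, next to its catalytic centre, and RPL22 is often deleted in T-ALL. RPL10 (A_32_P184367) had log2 values of 17.76, 17.75 and 17.58 with control siRNA, 17.62, 17.76 and 17.53 with siRNA1, and 17.55, 17.67 and 17.46 with siRNA2. RPL22 (A_32_P210252) had log2 values of 15.50, 15.59 and 15.27 with control siRNA, 15.38, 15.56 and 15.18 with siRNA1, and 15.43, 15.47 and 15.28 with siRNA2. Replicate 3 was again the lowest in each group, and no group stood apart. RPL10 differed by -0.097 (standard error 0.11, 95% confidence interval -0.35 to 0.15; limma adjusted p = 0.887). RPL22 differed by -0.070 (standard error 0.13, 95% confidence interval -0.35 to 0.21; limma adjusted p = 0.933). All 4 genes were below 0 with a median of -0.055, and all 4 were above 0 with normexp and quantile normalization, with a median of 0.035.

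Diamond-Blackfan anaemia is a failure of red cell production, and 13 members were listed for it: RPL5, RPL11, RPL15, RPL26, RPL35A, RPS7, RPS10, RPS19, RPS24, RPS26, RPS27, RPS28 and RPS29. Limma called 0 of the 13, 0 had an unadjusted p under 0.05, 12 were below 0 and 1 above, and the median of -0.061 turned to 0.0050 with normexp and quantile normalization. RPS19, a small subunit protein, is the gene most often mutated in that disease. RPS19 (A_24_P134074) had log2 values of 17.72, 17.50 and 17.61 with control siRNA, 17.29, 17.53 and 17.34 with siRNA1, and 17.47, 17.71 and 17.42 with siRNA2. In replicate 2 both siRNA arrays were above their control, in replicates 1 and 3 both were below it, and the groups overlapped. RPS19 differed by -0.15 (standard error 0.12, 95% confidence interval -0.42 to 0.12; limma adjusted p = 0.819). Over the 31 settings tried, its difference ran from -0.29 to -0.0068. RPS26 contacts the messenger RNA where it leaves the small subunit. RPS26 (A_23_P116694) had log2 values of 16.37, 16.43 and 16.53 with control siRNA, 16.14, 16.14 and 16.40 with siRNA1, and 15.80, 16.23 and 16.58 with siRNA2. The siRNA2 group held both the lowest array, replicate 1, and the highest, replicate 3, and 4 of the 6 siRNA arrays lay below the 3 control arrays. RPS26 differed by -0.23 (standard error 0.16, 95% confidence interval -0.59 to 0.13; limma adjusted p = 0.793).

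RPS24, also a small subunit protein of that list, was among the highest members. RPS24 (A_23_P1206) had log2 values of 17.33, 17.36 and 17.11 with control siRNA, 17.11, 17.66 and 17.15 with siRNA1, and 17.38, 17.23 and 17.51 with siRNA2. The highest array was siRNA1 replicate 2, and the lowest values, close to one another, were in control replicate 3 and siRNA1 replicate 1. RPS24 differed by 0.075 (standard error 0.15, 95% confidence interval -0.26 to 0.41; limma adjusted p = 0.938), and the value was -0.043 with VSN on the processed signal.

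In the large subunit, RPL8 had the lowest difference of the family. Its protein lies next to the peptidyl transferase centre. RPL8 (A_23_P31654) had log2 values of 17.31, 17.36 and 17.07 with control siRNA, 17.16, 17.11 and 16.62 with siRNA1, and 16.98, 17.13 and 16.85 with siRNA2. Each siRNA array was below the control of its own replicate, and control replicate 3 lay among the siRNA values. RPL8 differed by -0.28 (standard error 0.15, 95% confidence interval -0.61 to 0.053; limma adjusted p = 0.731), with an adjusted p of 0.123 from limma with the replicate block. RPL28 has no counterpart in budding yeast. RPL28 (A_23_P208358) had log2 values of 17.74, 17.54 and 17.34 with control siRNA, 17.31, 17.54 and 17.28 with siRNA1, and 17.32, 17.35 and 17.28 with siRNA2. Control replicate 1 was the highest array, and the control and siRNA1 values of replicate 2 were the same at this rounding. RPL28 differed by -0.20 (standard error 0.12, 95% confidence interval -0.47 to 0.080; limma adjusted p = 0.767). RPL23 is a large subunit protein that, like RPL5 and RPL11, can bind MDM2. RPL23 (A_23_P26713) had log2 values of 17.84, 17.84 and 17.66 with control siRNA, 17.66, 17.74 and 17.29 with siRNA1, and 17.80, 17.69 and 17.35 with siRNA2. The siRNA arrays of replicate 3 were the lowest, and control replicate 3 was nearly equal to siRNA1 replicate 1. RPL23 differed by -0.19 (standard error 0.15, 95% confidence interval -0.51 to 0.13; limma adjusted p = 0.812).

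RPS18, a protein of the small subunit head, had the largest gap between the siRNAs among the 5 lowest genes. RPS18 (A_23_P214666) had log2 values of 18.19, 18.23 and 18.03 with control siRNA, 18.08, 18.17 and 18.05 with siRNA1, and 17.93, 17.70 and 17.83 with siRNA2. The 3 siRNA2 arrays were the lowest, and the siRNA1 arrays overlapped with control. The difference of RPS18 was -0.19 (standard error 0.11, 95% confidence interval -0.44 to 0.054; limma adjusted p = 0.744), composed of -0.055 with siRNA1 and -0.33 with siRNA2. The other RPS18 probe (A_33_P3385488) was at -0.19 with siRNA1 and -0.13 with siRNA2, so that it did not have this gap. RPS6 is the ribosomal target of the S6 kinases. RPS6 (A_23_P123563) had log2 values of 18.19, 18.16 and 18.04 with control siRNA, 18.02, 18.17 and 17.90 with siRNA1, and 17.93, 17.99 and 17.90 with siRNA2. Only siRNA1 replicate 2 reached the control values, and the other 5 siRNA arrays were below them. RPS6 differed by -0.14 (standard error 0.11, 95% confidence interval -0.39 to 0.10; limma adjusted p = 0.813). RPSA, mutated in isolated congenital asplenia, is the small subunit protein also known as the laminin receptor. RPSA (A_23_P254415) had log2 values of 17.33, 17.33 and 17.21 with control siRNA, 17.15, 17.01 and 17.15 with siRNA1, and 17.29, 17.23 and 17.21 with siRNA2. The siRNA1 arrays were the 3 lowest and the siRNA2 arrays lay between them and control, with siRNA2 replicates 1 and 2 inside the control range. RPSA differed by -0.12 (standard error 0.10, 95% confidence interval -0.35 to 0.11; limma adjusted p = 0.844).

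The highest member was RPL27A, a large subunit gene whose only probe was dim. Its mean value was 5.92, while those of the other members lay between 15.4 and 18.7. Whether that probe reads the main transcript of the gene was not checked, so the values are those of the probe. RPL27A (A_23_P416305) had log2 values of 5.66, 5.80 and 5.85 with control siRNA, 5.80, 5.89 and 5.91 with siRNA1, and 5.95, 6.14 and 6.29 with siRNA2. Each siRNA array was above the control of its own replicate, the siRNA2 arrays were the highest, and siRNA1 overlapped with control. RPL27A differed by 0.23 (standard error 0.12, 95% confidence interval -0.032 to 0.48; limma adjusted p = 0.725), with an adjusted p of 0.151 from the blocked fit. Without RPL27A, a choice made after seeing the data, the median of the other 76 genes was -0.080. RPL10A forms the mobile stalk beside the site where used transfer RNAs leave. RPL10A (A_23_P251593) had log2 values of 17.74, 17.69 and 17.27 with control siRNA, 17.68, 17.70 and 17.29 with siRNA1, and 17.83, 17.74 and 17.33 with siRNA2. Replicate 3 was lower by a similar step in every group, and the groups overlapped. RPL10A differed by 0.029 (standard error 0.17, 95% confidence interval -0.34 to 0.40; limma adjusted p = 0.982), and by -0.083 with VSN on the processed signal.

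The members differed in how steady they were. RPL41, whose product is a very short peptide of the large subunit, and RPL4, whose loop lines the exit tunnel, had with RPSA the smallest spread within groups. RPL41 (A_23_P128067) had log2 values of 17.80, 17.85 and 17.68 with control siRNA, 17.67, 17.70 and 17.68 with siRNA1, and 17.80, 17.75 and 17.75 with siRNA2. RPL4 (A_23_P69431) had log2 values of 17.22, 17.15 and 17.11 with control siRNA, 17.15, 17.11 and 17.03 with siRNA1, and 17.18, 17.08 and 17.07 with siRNA2. All 9 arrays lay close together for both genes, and control overlapped with the siRNA groups. The within-group SD was 0.053 for RPL41, 0.060 for RPL4 and 0.065 for RPSA. With the array median of the family taken away, these SDs were 0.089, 0.10 and 0.14. The median over the members was then 0.096, so that these 3 genes were no longer the steadiest. RPL41 differed by -0.051 (standard error 0.10, 95% confidence interval -0.28 to 0.18; limma adjusted p = 0.939) and RPL4 by -0.058 (standard error 0.10, 95% confidence interval -0.29 to 0.17; limma adjusted p = 0.932), and with normexp and quantile normalization by 0.011 and 0.047.

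RPS15A, RPL34 and RPL35 had the largest spread when read by their brightest probes. RPS15A (A_24_P221366) had log2 values of 17.26, 17.37 and 16.66 with control siRNA, 17.19, 17.56 and 16.74 with siRNA1, and 17.26, 17.24 and 16.70 with siRNA2. RPL34 (A_23_P7221) had log2 values of 17.81, 17.92 and 17.17 with control siRNA, 17.71, 17.62 and 17.19 with siRNA1, and 17.90, 17.51 and 17.31 with siRNA2. For both genes the arrays of replicate 3 were the lowest of every group. RPL35 (A_23_P112429) had log2 values of 17.34, 17.36 and 17.15 with control siRNA, 17.23, 17.10 and 17.16 with siRNA1, and 17.38, 17.23 and 16.51 with siRNA2. A single array was low for RPL35, that of siRNA2 replicate 3, and the other 8 lay close together. The within-group SD was 0.37 for RPS15A, 0.33 for RPL34 and 0.28 for RPL35, whose protein sits at the exit of the tunnel. RPS15A differed by 0.017 (standard error 0.22, 95% confidence interval -0.47 to 0.51; limma adjusted p = 0.993), which was -0.052 with VSN on the processed signal. The difference of RPL34 was -0.095 (standard error 0.20, 95% confidence interval -0.54 to 0.35; limma adjusted p = 0.943) and that of RPL35 -0.18 (standard error 0.18, 95% confidence interval -0.57 to 0.21; limma adjusted p = 0.858). With single arrays left out and no replicate block, the difference of RPL35 ran from -0.26 to -0.048. Other probes of these genes did not all have that spread. RPS15A probe A_33_P3241582 had SDs of 0.11, 0.074 and 0.12 in the control, siRNA1 and siRNA2 groups, against 0.38, 0.41 and 0.32 for the brightest. RPL35 probe A_32_P72940 had 15.33, 15.23 and 15.20 with siRNA2, so that the single low array was not seen there. With the array median of the family taken away, RPL35 on the siRNA2 array of replicate 3 stood at -0.56, and RPS15A on the arrays of replicate 3 at -0.34, -0.22 and -0.32.

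Each siRNA was also compared with control on its own, and both comparisons use the same 3 control arrays. With siRNA1, 69 of 77 genes were below 0 with a median of -0.081, which was 0.010 with normexp and quantile normalization, and over all tested probes the median was -0.0048. Limma called 0 members and 0.00893% of all tested probes for siRNA1, with 0 members and 5.93% of all tested probes at an unadjusted p under 0.05. With the replicate block it called 0 members and 0.947% of all tested probes, with 2 members (2.6%) and 19.2% of all tested probes at an unadjusted p under 0.05. With siRNA2, 66 of 77 genes were below 0 with a median of -0.067, which was 0.0063 with normexp and quantile normalization and 0.037 on the second slide, and over all tested probes the median was 0.0077. Here limma called 0 members and 0.0119% of all tested probes, with 2 members (2.6%) and 5.9% of all tested probes at an unadjusted p under 0.05. The blocked fit called 0 members and 1.65% of all tested probes, with 4 members (5.19%) and 19.5% of all tested probes at an unadjusted p under 0.05. Without control replicate 3 the siRNA1 median was -0.17, from a fit without a block whose controls all lay on the first slide.

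The siRNAs were then compared with each other, which asks whether they left different ribosomal protein RNA levels. For siRNA2 minus siRNA1, 39 genes were below 0 and 38 above 0, with a median of -0.0086 that was -0.0064 with normexp and quantile normalization. Limma called 0 of 77 genes and 0% of all tested probes, with 0 genes and 2.52% of all tested probes at an unadjusted p under 0.05. With the replicate block it called 0 genes and 0.0387% of all tested probes, with 4 genes (5.19%) and 9.67% of all tested probes at an unadjusted p under 0.05. The span ran from the brightest probe of RPS18 at -0.28, a direction its other probe did not have, to RPL18 at 0.38, a large subunit gene singled out after its values were seen. RPL18 (A_23_P142146) had log2 values of 16.75, 17.29 and 16.72 with control siRNA, 16.62, 16.87 and 16.61 with siRNA1, and 16.82, 17.19 and 17.25 with siRNA2. Control replicate 2 and siRNA2 replicate 3 were the highest arrays, siRNA1 replicates 1 and 3 the lowest, and the groups overlapped. The siRNA2 minus siRNA1 difference of RPL18 had a standard error of 0.19 and an adjusted p of 0.9998 in limma.

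For 39 members the array held further probes, 73 in all, and limma called 0 of them in any of the 4 comparisons, with 4 (5.48%, against 7.43% of all tested probes) at an unadjusted p under 0.05 for both siRNAs. With the replicate block it again called 0, with 8 (11%, against 21.8%) at an unadjusted p under 0.05. Their median difference for both siRNAs was -0.096, and 61 of 73 had the sign of the brightest probe of their gene. The 12 others belonged to 8 genes: RPL10A, RPL28, RPL37A, RPL5, RPS10, RPS14, RPS15A and RPS29. RPL28 had further probes at 0.015, 0.21 and 0.080 against -0.20 for its brightest, and the mean of its probes was 0.026. RPS15A had further probes at -0.097, -0.32 and 0.082 against 0.017, with -0.081 for the mean of its probes. The further probe of RPL10A was at -0.068 against 0.029, and those of RPL5 at 0.030 and 0.016 against -0.021. RPS26 had further probes at -0.29 and -0.33 and RPSA at -0.26, -0.12 and -0.17, all below 0 like their brightest.

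**Figure D4:**
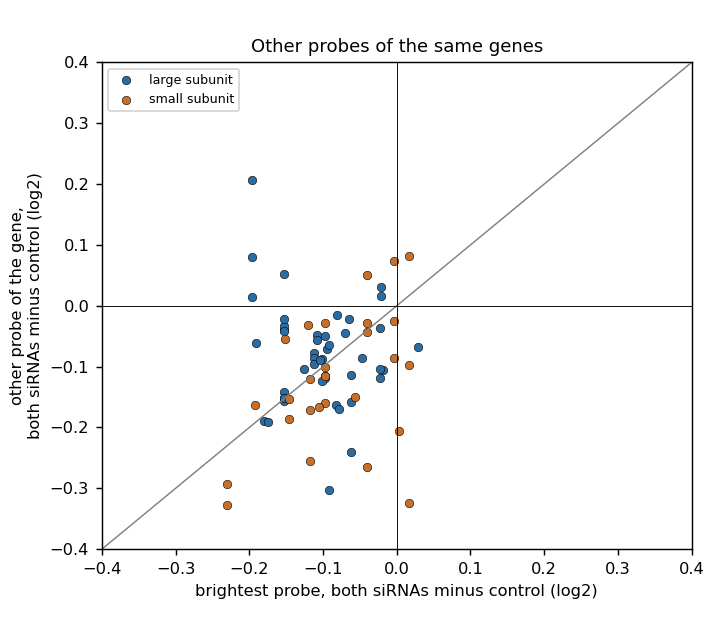
Log2 difference of both PHF6 siRNAs minus control for the 73 further probes (y axis) against that of the brightest probe of the same gene (x axis), coloured by subunit, with the diagonal as a grey line. The counts show that 61 of 73 share the sign of the brightest probe, and the farthest above 0 is a probe of RPL28 at 0.21.

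In the plot of further probes, the point farthest above the diagonal is an RPL28 probe and the point farthest below it is an RPS15A probe. Different probes can read different transcript forms or near-identical copies of a gene, and which of these a probe read was not tested.

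Paralogs outside the rule were set beside the members. Of 8 listed paralogs, 7 were tested and RPL39L was not well above background on enough arrays. Limma called 0 of the 7, with 0 at an unadjusted p under 0.05, against 0.00893% and 7.43% of all tested probes. Their median was -0.13, with 5 below 0 and 2 above, and it was 0.025 with normexp and quantile normalization. RPL22L1, the paralog that can replace RPL22, is one of them. RPL22L1 (A_23_P143958) had log2 values of 13.93, 14.41 and 13.96 with control siRNA, 13.92, 14.29 and 13.92 with siRNA1, and 14.06, 14.34 and 14.05 with siRNA2. The groups of RPL22L1 overlapped, and its difference was -0.0031 (standard error 0.15, 95% confidence interval -0.34 to 0.34; limma adjusted p = 0.999), with 0.099 after normexp and quantile normalization. RPS27L, the paralog of RPS27, is a target of p53. RPS27L (A_23_P14734) had log2 values of 12.68, 12.71 and 12.74 with control siRNA, 12.36, 12.47 and 12.68 with siRNA1, and 12.47, 12.39 and 12.86 with siRNA2. In replicates 1 and 2 both siRNA arrays were below their control, in replicate 3 siRNA2 was above it, and siRNA2 replicate 3 was the highest array of all. RPS27L differed by -0.17 (standard error 0.13, 95% confidence interval -0.47 to 0.13; limma adjusted p = 0.816). Ribosomal components with other names were read as RACK1 and FAU, neither of which limma called (0 at an unadjusted p under 0.05), with a median of -0.080 that was 0.036 with normexp and quantile normalization.

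Other genes of the pathway were read from lists, beside 7.43% of all tested probes with an unadjusted p under 0.05 in limma and 21.8% with the replicate block. Limma called 0 of 23 tested translation factors and genes with a terminal oligopyrimidine tract (EIF2S3 was not tested), 0 of them at an unadjusted p under 0.05 and 1 with the block, with 15 below 0 and a median of -0.060 that was 0.033 with normexp and quantile normalization. Of 30 tested genes for import, chaperoning and assembly of the subunits (RIOK1 was not tested), limma called 0, 1 had an unadjusted p under 0.05 and 8 did with the block, 27 were below 0, and the median was -0.18 and -0.11 with normexp and quantile normalization. Of the 14 genes of RNA polymerase I transcription, limma called 0 (0 had an unadjusted p under 0.05, and 2 with the block). With the replicate block it called 1 of the 14, POLR1G, a subunit of the enzyme, against 2.74% of all tested probes. POLR1G (A_23_P208310) had log2 values of 9.83, 9.26 and 9.67 with control siRNA, 9.45, 8.90 and 9.56 with siRNA1, and 9.18, 8.67 and 9.32 with siRNA2. Each siRNA array was below the control of its own replicate, and the groups overlapped because replicate 2 was the lowest of each group. POLR1G differed by -0.41 (standard error 0.20, 95% confidence interval -0.85 to 0.041; limma adjusted p = 0.713), with an adjusted p of 0.0439 from the blocked fit. That call was lost in limma with the block and VSN on the processed signal (adjusted p = 0.0652), 75th percentile scaling (0.0718), no background filter (0.146) or any replicate left out. UBTF, which opens ribosomal DNA for that polymerase, differed by -0.013 (standard error 0.11, 95% confidence interval -0.26 to 0.23; limma adjusted p = 0.989), with 0.019 after normexp and quantile normalization. The 14 genes had a median of -0.055, which was 0.014 with normexp and quantile normalization.

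Among the regulators and sensors of ribosomal protein genes, such as MYC, MTOR, LARP1 and MDM2, limma called 0 of 13 tested genes (CDKN1A was not tested), 0 of them at an unadjusted p under 0.05 without or with the block, with 10 below 0 and a median of -0.069, which was -0.0033 with normexp and quantile normalization. The 77 mitochondrial ribosomal protein genes, the counterparts in the organelle, had a median of -0.11, with 67 below 0, and -0.039 with normexp and quantile normalization, and limma called 0 of them, with 1 at an unadjusted p under 0.05 and 10 with the block. Some T cell markers had larger differences. Of the 12 markers 9 were below 0 and 3 above, with a median of -0.12. That median was -0.028 with normexp and quantile normalization and -0.046 on the second slide, where 6 were below 0 and 6 above. With the replicate block limma called CD7, a surface marker of T cells, at -0.76 (adjusted p = 0.0124). It also called PTCRA, the pre-T cell receptor alpha chain, at -0.73 (limma adjusted p = 0.00836). Without the block it called 0 of the 12 markers. An unadjusted p under 0.05 was reached by 3 of 12 without the block and by 6 of 12 with it. Over all tested probes 2.74% were called with the block, and an unadjusted p under 0.05 was reached by 7.43% without it and 21.8% with it. CD79B, a B cell receptor component, was called at -0.48 with the block (adjusted p = 0.0416 from limma), 1 of 4 tested B cell markers. Of these 4, 3 were below 0 and 1 above, and limma called 0 without the block. An unadjusted p under 0.05 was reached by 1 of them without the block and by 2 with it. Limma called 0 of 4 tested myeloid markers, with 0 at an unadjusted p under 0.05 without or with the block. It called 0 of 4 tested erythroid markers, with 0 at an unadjusted p under 0.05 and 1 with the block. PAX5, CD22, LYZ, CD33, HBB and HBA1 were not tested. In limma with the block, the call of CD79B was lost with VSN on the processed signal (adjusted p = 0.0889), 75th percentile scaling (0.0932), no background filter (0.139) or any replicate left out. The call of CD7 was lost with no filter (adjusted p = 0.0577 in limma), and those of CD7 and PTCRA were lost without replicate 1 or replicate 2. What part these markers had in the ribosomal protein values was not tested.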

How the data were processed

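The authors deposited spot intensities from Agilent Feature Extraction (version 9.1 in the labels and 10.5.1.1 in the headers) and a table of log2 values that they made by VSN normalization. Here the median spot intensities, without control spots and spots flagged as outliers, were averaged per probe and normalized with a VSN model written for this report. Probes well above background on 3 or more arrays were tested in limma 3.58.1 (R 4.3.3, statmod 1.5.0) with Benjamini-Hochberg adjustment over 33586 probes, at an adjusted p under 0.05. The comparisons were both PHF6 siRNAs, siRNA1 and siRNA2 against control, and siRNA2 against siRNA1. The replicate numbers of the labels pair the arrays, and a fit with them as a block was made beside the one without: deviations from group means correlated at 0.311 to 0.745 for the 9 pairs with the same number and at -0.569 to 0.134 for 18 pairs with different numbers. Named genes are, of those reported, the 5 lowest, the 5 highest, the 3 steadiest and the 3 most variable members, 10 members listed by role, and other list genes by role or by passing the test, with 5 more members singled out after their values were seen. Other normalizations, filters, spot flags, probe choices, variance models and array sets were tried as alternatives. Some genes are not reported here by name. The members and lists were chosen with earlier results of these data known.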

Additional observations from a re-analysis of the deposited data

How the results depend on the processing

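The number of ribosomal protein genes called was 0 under every normalization, background filter, probe choice, variance model and set of arrays tried, in all 4 comparisons. In the fits of the report, 0% to 0.0119% of all tested probes were called without the replicate block, and 0.0387% to 2.74% with it. Without the block, 0 members called was thus close to the share over all probes, and for most other fits that share was not counted. The lowest adjusted p of any member in any of these limma fits was 0.0628, for siRNA2 with the replicate block and only the probes well above background on all 9 arrays. The size of the median difference was less steady. For both siRNAs it was -0.0022 with normexp and quantile normalization, 0.0081 relative to the median of the brightest 10% of probes and -0.015 on the second slide alone, and leaving out single arrays gave -0.16 to -0.037. For siRNA1 it was 0.010 with normexp and quantile normalization and 0.023 relative to the brightest 10%, and leaving out single arrays gave -0.17 to -0.015. For siRNA2 it was 0.037 on the second slide alone and -0.15 to -0.025 with single arrays left out, and for siRNA2 against siRNA1 it was -0.075 to 0.096. The fits with single arrays left out had no replicate block, which left the replicate numbers unbalanced between groups. The slide and brightness references were chosen after seeing the data, and the cause of these moves was not tested.

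Some genes, RPL28 among them, changed sign with the normalization or the probes used, and each such value was the same with the replicate block. VSN on the processed signal gave -0.043 for RPS24, -0.052 for RPS15A, -0.079 for RPLP2 and -0.083 for RPL10A, which were above 0 in the fit of the report. Scaling to the 75th percentile gave -0.024 for RPS24, -0.033 for RPS15A, -0.060 for RPLP2 and -0.064 for RPL10A. Normexp and quantile normalization gave 0.011 for RPL41, 0.019 for UBTF, 0.029 for RPL10, 0.031 for RPL11, 0.039 for RPL22, 0.047 for RPL4, 0.071 for RPL5 and 0.099 for RPL22L1, which were below 0 in the fit of the report. Averaging the probes of each gene gave -0.019 for RPL10A, -0.081 for RPS15A, 0.0085 for RPL5 and 0.026 for RPL28.

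The fits with single arrays left out had no replicate block, so that they also left the replicate numbers unbalanced between groups. In these fits the difference for both siRNAs ran over 0 in 9 named genes. It went from -0.014 to 0.12 for RPS24, -0.12 to 0.12 for RPL10A, -0.20 to 0.15 for RPS15A and -0.057 to 0.063 for RPLP2. The range was -0.33 to 0.049 for RPL34, -0.084 to 0.013 for RPL5, -0.20 to 0.078 for RPL11, -0.040 to 0.026 for UBTF and -0.090 to 0.15 for RPL22L1. In every one of these fits the ribosomal protein genes stayed without a call.

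The replicate block left every difference for both siRNAs in place, with a median of -0.079 for the ribosomal protein genes, and narrowed the median standard error of the members from 0.13 to 0.091. It brought POLR1G at -0.41, CD79B at -0.48, PTCRA at -0.73 and CD7 at -0.76 past the threshold and changed no other call among the named genes and members. Those calls did not hold in all blocked fits. POLR1G lost its call with VSN on the processed signal (-0.45, limma adjusted p = 0.0652), 75th percentile scaling (-0.44, 0.0718), no filter (-0.41, 0.146), replicate 1 left out (-0.35, 0.34), replicate 2 left out (-0.37, 0.155) and replicate 3 left out (-0.49, 0.0655). CD79B lost its call with VSN on the processed signal (-0.52, limma adjusted p = 0.0889), 75th percentile scaling (-0.51, 0.0932), no filter (-0.48, 0.139), replicate 1 left out (-0.52, 0.206), replicate 2 left out (-0.36, 0.161) and replicate 3 left out (-0.54, 0.0732). CD7 was not called with no filter (-0.76, limma adjusted p = 0.0577), replicate 1 left out (-0.86, 0.0581) and replicate 2 left out (-0.79, 0.106), and PTCRA was not called with replicate 1 left out (-0.78, limma adjusted p = 0.0581) and replicate 2 left out (-0.66, 0.101). In the blocked fit without replicate 1, RPLP0 was at 0.018 and RPL11 at 0.053. Without replicate 2, the values were -0.0023 for RPLP2, 0.027 for UBTF, 0.036 for RPL34 and 0.043 for RPL22L1, and without replicate 3 they were -0.0022 for RPS15A and -0.0068 for RPLP2, each on the other side of 0 from the fit with all arrays.

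What the measure can show is limited by how signal stands over background. The members except RPL27A are among the brightest probes, where a fixed shift in array scale would move all of them together. Such a shift and a change of the RNA cannot be told apart here, and the part of either was not tested. The probe of RPL27A is dim, and its difference was above 0 in every setting tried. With 3 arrays per group, the printed confidence intervals are the measure of precision. Except where the block is named, they come from the fit without it, and with it the intervals of RPL8 and RPL27A did not include 0.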
